A study of Mus musculus with 4 samples.

Results

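A set of 10 genes of the inflammasome and of the interleukin-1 (IL-1) family was followed across 4 mouse oral cancer cell lines: Casp1, Casp4, Casp12, Pycard, Nlrp3, Gsdmd, Il1a, Il1b, Il1rn and Il18. They were chosen by gene symbol with their values across these lines already known, so their levels are given as a description, with no test. All 10 were measured, each by 1 probe set, among 19505 named genes on the Affymetrix Mouse Clariom S array. M1-2 and M2-3 were cultured from separate tongue tumors of C57BL/6 mice that had received 4-nitroquinoline 1-oxide and arecoline, and each was taken through sphere culture, a way of growing cells in suspension: NHRI-HN1 derives from M1-2, and M2-3 is the parent of NHRI-HN2. All 4 lines were kept in DMEM with fetal bovine serum, and 1 array was hybridized per line. Only NHRI-HN1 formed tumors in the mouth of immunocompetent mice of the same strain. A line is a single culture, so a difference between arrays holds everything that separates those cultures, and no spread between repeat cultures is known. Expression is given on the deposited scale, taken as log2, where 1 unit is nominally a 2-fold difference. The lower quartile of an array lay between 3.02 and 3.16 and its median between 4.53 and 4.75, so values near 3 are among the dimmest signals.

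Inflammasomes are cytosolic complexes in which a sensor such as NLRP3 joins the adaptor ASC, encoded by Pycard, to caspase-1. Active caspase-1 matures IL-1beta and IL-18 and cuts gasdermin D, whose released fragment forms pores in the plasma membrane and ends in pyroptosis, a lytic cell death. Caspase-4 of the mouse, long called caspase-11, responds to cytosolic lipopolysaccharide and also cuts gasdermin D. Keratinocytes store IL-1alpha and IL-18 and make the IL-1 receptor antagonist, whereas IL-1beta and NLRP3 are best known from myeloid cells.

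The array of NHRI-HN1 stood apart from the others, with 12 of 16 keratinocyte markers at least 1 unit below all other lines (4.99% of all genes). The labels call all 4 an oral cancer line. At the protein level, the study reported pan-cytokeratin and EGFR staining and no alpha-smooth muscle actin in NHRI-HN1. It also reported less E-cadherin in NHRI-HN1 than in M1-2 by immunoblot. Those protein results bear on this too and were not analysed here. The keratinocyte markers and other non-member genes were tested with limma, as NHRI-HN1 against the mean of the 3 other lines. Benjamini-Hochberg adjustment ran over all genes, with a threshold of 0.05 on the adjusted p, by which 0.508% of all genes were called higher and 0.113% lower. Of the 16 keratinocyte markers 6 fell in NHRI-HN1 (Krt14, Krt17, Cdh1, Perp, Pkp1 and Itgb4) and none rose (8 lower and none higher at an unadjusted p under 0.05). Krt14, a keratin of basal cells, was 3.39 in NHRI-HN1 and 15.38 to 18.76 elsewhere. The summed keratinocyte values were 145.91 for M1-2, 56.89 for NHRI-HN1, 239.17 for M2-3 and 227.30 for NHRI-HN2. Among 12 skeletal muscle markers, limma called 6 higher in NHRI-HN1 (Myog, Myf5, Mylpf, Chrna1, Myh3 and Acta1) and 0 lower (12 and 0 at an unadjusted p under 0.05), and their sum was 113.81 there and 39.93 to 48.37 elsewhere. Fibroblast markers summed to 66.14, 72.75, 39.19 and 64.92 over 10 genes in M1-2, NHRI-HN1, M2-3 and NHRI-HN2, and none was called (3 higher and none lower at an unadjusted p under 0.05). Sums are of log2-scale values, so opposite differences cancel. In NHRI-HN1, 4 fibroblast markers were at least 1 unit above all other lines and 1 below (5.89% and 4.99% of all genes). Col3a1 was 16.55 there and 2.92 to 6.89 elsewhere, and Postn was 3.16 against 6.55 to 14.30. Of 13 macrophage and leukocyte markers 12 were below the array median in all lines, with sums of 38.45 to 46.37 and none called (none at an unadjusted p under 0.05 either). Ptprc, the defining leukocyte marker, was between 2.97 and 3.69, and Cd14, the exception, was 8.13 in M1-2 and 5.27 to 5.67 elsewhere. In RNA of a whole culture, fewer cells of a type and less RNA per cell cannot be told apart. The part of these cell type programs in the levels given next was not tested. The error of the fit is the spread of the 3 other lines, which are not independent because NHRI-HN2 comes from M2-3. All these calls were lost without M2-3 (788 genes higher and 426 lower at an unadjusted p under 0.05) or without NHRI-HN2 (697 and 296), where limma called no gene, and without M1-2 the calls over all genes numbered 370 higher and 337 lower. Differences between M1-2, M2-3 and NHRI-HN2 leave out the NHRI-HN1 array, unless the normalization, which is not given, drew on all arrays together.

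In the cluster of inflammatory caspase genes, Casp1 was low in NHRI-HN1, while Casp4 and Casp12 had their highest values there. Casp1, the protease of the canonical inflammasome, was 11.15 in M1-2 and 3.29 in NHRI-HN1, against 12.68 in M2-3 and 11.82 in NHRI-HN2. NHRI-HN1 thus stood alone near the dimmest signals, 7.86 units below its parent and 7.86 below the lowest other line, while the other lines lay between 11.15 and 12.68. Casp4 was 6.42 in M1-2 and 7.76 in NHRI-HN1, against 4.73 in M2-3 and 6.92 in NHRI-HN2. Casp12, a relative of the inflammatory caspases whose role is less settled, was 7.62, 8.68, 5.40 and 6.67 in the same order of lines. For both genes NHRI-HN1 was the highest line, by 0.84 units for Casp4 and 1.06 for Casp12 over the next, and M2-3 the lowest. This was the opposite order of extremes to Casp1. Each sphere-derived line was also above its own parent, by 1.34 and 2.19 units for Casp4 and by 1.06 and 1.27 for Casp12 in NHRI-HN1 and NHRI-HN2, respectively. The keratinocyte markers called lower in NHRI-HN1 were picked by that contrast, so their sharing this line with Casp1 carries no weight. Not all keratinocyte markers ran like Casp1, with Krt5 at 4.68 in M1-2 and 17.24 in M2-3.

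**Figure D1:**
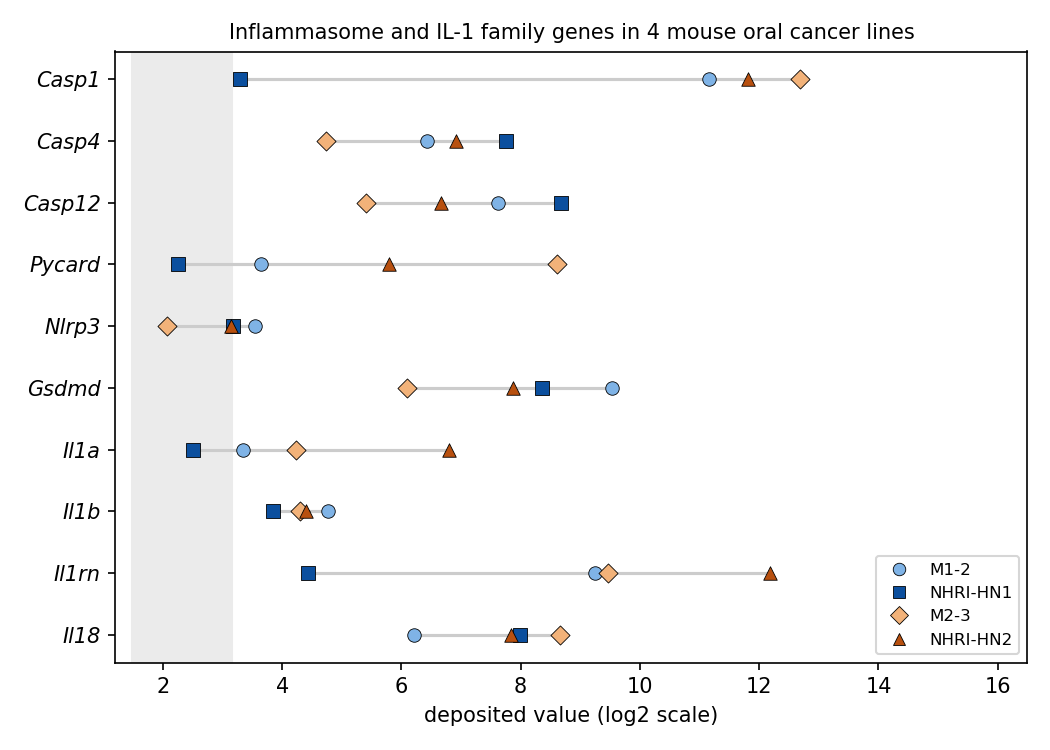
Deposited log2-scale values (horizontal axis) of the 10 genes (rows), 1 symbol per line and array; the grey band runs from the lowest value on any array to the highest lower quartile of an array. NHRI-HN1 (dark squares) is apart from the other lines for Casp1 and Il1rn, at 3.29 and 4.44.

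In the RefSeq annotation of the mouse assembly GRCm38.p6, Casp1, Casp4 and Casp12 follow each other on chromosome 9 with no other protein-coding gene between them. Genes around them were looked up by position and not by the rule for named genes. The nearest gene on the Casp1 side, the glutamate receptor gene Gria4, was between 2.44 and 3.26 in all lines, and Msantd4 beyond it was between 9.86 and 11.40. On the Casp12 side, Pdgfd, a platelet-derived growth factor, was 3.06 in M1-2 and 8.85 in NHRI-HN1, against 2.48 in M2-3 and 2.52 in NHRI-HN2. The low value of Casp1 in NHRI-HN1 was therefore next to genes that were at their highest in that line. Gria4 and, beyond Pdgfd, Ddi1 (2.67 to 3.46) were near the dimmest signals in all lines, so they could not show a fall. Of the other measured genes among the 4 on either side, none was at its lowest in NHRI-HN1.

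**Figure D2:**
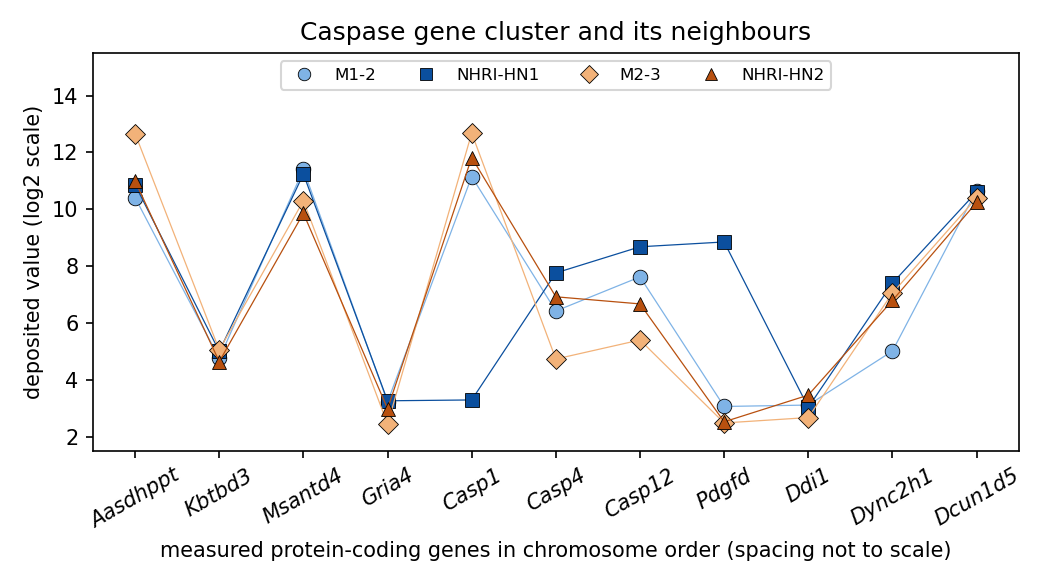
Deposited log2-scale values (vertical axis) of the 3 caspase genes and 4 measured protein-coding genes on each side, in chromosome order and not to scale; symbols are lines, and thin lines only join values of 1 array. NHRI-HN1 is lowest of the lines at Casp1 (3.29) and highest at Casp4, Casp12 and Pdgfd.

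The 250 bases upstream of the annotated starts, from RefSeq on GRCm38.p6, show how the promoters of these neighbors differ in letters. In these windows 4 motifs were searched on both strands, and no match overlapped another. They were GGG, any 2 bases and TTTCC for NF-kB, GAAA, any 2 bases and GAAA for the interferon-stimulated response element, TGANTCA for AP-1, and TTCNNNGAA for GAS, the site of STAT factors. Matches are in capitals, and all windows lie on the plus strand. Casp4 has 2 annotated starts, and the upstream one is shown.
Casp1, chr9:5298267-5298516: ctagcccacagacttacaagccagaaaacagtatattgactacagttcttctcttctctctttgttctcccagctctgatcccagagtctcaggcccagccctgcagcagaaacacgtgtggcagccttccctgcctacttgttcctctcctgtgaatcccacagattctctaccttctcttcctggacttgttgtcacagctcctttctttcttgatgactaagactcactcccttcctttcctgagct
Casp4, chr9:5308599-5308848: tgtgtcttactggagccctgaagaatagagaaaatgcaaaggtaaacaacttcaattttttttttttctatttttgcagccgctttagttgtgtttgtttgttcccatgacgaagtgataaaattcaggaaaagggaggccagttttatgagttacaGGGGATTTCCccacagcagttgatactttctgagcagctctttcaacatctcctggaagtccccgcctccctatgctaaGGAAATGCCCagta
Casp12, chr9:5345226-5345475: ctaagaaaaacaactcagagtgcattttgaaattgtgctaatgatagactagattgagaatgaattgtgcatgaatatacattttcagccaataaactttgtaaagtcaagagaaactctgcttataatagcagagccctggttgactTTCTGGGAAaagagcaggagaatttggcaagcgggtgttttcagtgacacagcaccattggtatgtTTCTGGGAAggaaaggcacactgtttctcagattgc
The Casp1 window held none of the 4 motifs. The Casp4 window held 2 matches to the NF-kB letters, from 93 to 84 and from 14 to 5 bases before the start, and 1.41% of 32851 such windows in the table held at least 1. The Casp12 window held 2 matches to the GAS letters, from 102 to 94 and from 36 to 28 bases before the start, against 7.02% of windows with any. A match is a description of letters and not evidence of binding.

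Pycard, the adaptor, was 3.65 in M1-2 and 2.26 in NHRI-HN1, against 8.61 in M2-3 and 5.79 in NHRI-HN2. Both lines of the M1-2 tumor were below both lines of the M2-3 tumor, and each sphere-derived line was below its parent, by 1.39 and 2.82 units. The NHRI-HN1 value lay under the lower quartile of its array, among the dimmest signals. Trp63, which encodes the basal cell regulator p63, was likewise low in both lines of the M1-2 tumor, at 6.66 and 4.78, against 17.00 in M2-3 and 16.78 in NHRI-HN2. Keratinocyte markers were split in this, as the 6 that limma called were between 13.53 and 15.38 in M1-2. A link of Pycard to these markers was not tested. Nlrp3, the sensor, was 3.55, 3.17, 2.07 and 3.14 in M1-2, NHRI-HN1, M2-3 and NHRI-HN2, below the array median in all 4 lines. Gsdmd, the pore-forming substrate, was 9.53 in M1-2 and 8.35 in NHRI-HN1, against 6.10 in M2-3 and 7.87 in NHRI-HN2. It was thus highest in the parent of NHRI-HN1, lowest in the other parent, and moved in opposite directions from parent to sphere-derived line.

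Among the cytokines, the receptor antagonist Il1rn spread most. Il1rn was 9.24 in M1-2 and 4.44 in NHRI-HN1, against 9.46 in M2-3 and 12.18 in NHRI-HN2. The parents were 0.22 units apart, and their sphere-derived lines ended 7.74 units apart on either side of them. Il1a, encoding the alarmin IL-1alpha, was 3.34 in M1-2 and 2.50 in NHRI-HN1, against 4.23 in M2-3 and 6.79 in NHRI-HN2, so that its order of lines was that of Il1rn. Only NHRI-HN2 was above the array median for Il1a. Il1b, the cytokine that caspase-1 matures, was 4.76, 3.85, 4.30 and 4.40 in M1-2, NHRI-HN1, M2-3 and NHRI-HN2, a range of 0.91 units. That range was at percentile 42.17 of all named genes. Il18, the other caspase-1 substrate, was 6.21 in M1-2 and 7.99 in NHRI-HN1, against 8.66 in M2-3 and 7.83 in NHRI-HN2. Only M1-2 was set apart there, and both sphere-derived lines were within 0.83 units of M2-3.

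Il1rn and Il1a shared their order of lines. The windows shown for them, on the plus and minus strand, respectively, each held 1 match to the AP-1 letters, in capitals. Il1rn has 3 annotated starts, of which the first is shown, and its windows at starts 2 and 3 held no AP-1 match.
Il1rn, chr2:24336610-24336859: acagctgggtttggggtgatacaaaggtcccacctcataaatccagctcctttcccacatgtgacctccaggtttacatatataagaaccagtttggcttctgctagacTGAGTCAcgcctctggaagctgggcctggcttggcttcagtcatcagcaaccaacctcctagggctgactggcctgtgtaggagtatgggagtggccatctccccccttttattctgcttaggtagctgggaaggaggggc
Il1a, chr2:129309973-129310222: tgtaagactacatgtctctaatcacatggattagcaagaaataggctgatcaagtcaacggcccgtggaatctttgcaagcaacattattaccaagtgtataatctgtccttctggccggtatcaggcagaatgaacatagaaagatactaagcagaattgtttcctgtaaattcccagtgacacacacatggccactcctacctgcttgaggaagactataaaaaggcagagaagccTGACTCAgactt
The match lay from 141 to 135 bases before the start of Il1rn and from 12 to 6 before that of Il1a, and 6.75% of all windows held these letters. Windows were found for 9 of the 10 genes, 13 windows in all. Genes with several starts have more windows, so counts of genes are not comparable with shares of windows. Of these 9 genes, 2 held the NF-kB letters (Casp4 and, at its most downstream start, Il1rn), 1 the GAS letters and none the interferon response letters, which 2.98% of all windows held.

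By size, 3 of the 10 genes (Casp1, Pycard and Il1rn) were at least 1 unit below all 3 other lines in NHRI-HN1, where 4.99% of all genes were, and 1 (Casp12) was at least 1 unit above them, where 5.89% were. Casp4 missed the same distance by being 0.84 units above NHRI-HN2. In M2-3, 4 genes (Casp4, Casp12, Gsdmd and Nlrp3) were at least 1 unit below all others and 1 (Pycard) above, against 3.19% and 3.06% of all genes. In M1-2, Il18 was below and Gsdmd above (3.57% and 4.34% of all genes). In NHRI-HN2, Il1a and Il1rn were above and none was below (0.943% and 0.415% of all genes). The 10 genes were chosen from these values, so nothing is read from their share.

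From parent to sphere-derived line, some of the 10 genes differed the same way in both tumors of origin and others in opposite ways. In NHRI-HN1, 3 genes were at least 1 unit above M1-2 (Casp4, Casp12 and Il18; 12.1% of all genes) and 4 were below (Casp1, Pycard, Gsdmd and Il1rn; 12.2% of all genes). In NHRI-HN2, 6 were at least 1 unit above M2-3 (Casp4, Casp12, Gsdmd, Nlrp3, Il1a and Il1rn; 6.52% of all genes) and 1 was below (Pycard; 5.69% of all genes). Casp4 and Casp12 were higher and Pycard lower in both steps, although Pycard was among the dimmest signals in NHRI-HN1. Gsdmd and Il1rn went opposite ways by at least 1 unit in each, as did 2.66% of all genes. The median difference of the 10 genes was -0.87 in the first step and 1.17 in the second, where the medians of all genes were 0.00 and -0.06. Each step is 1 array against 1 array, and for scale the median absolute difference of all genes was 0.48 units in the first and 0.36 in the second. Between the parents, 4 genes were at least 1 unit higher in M1-2 than in M2-3 (Casp4, Casp12, Gsdmd and Nlrp3; 13.7% of all genes) and 3 were lower (Casp1, Pycard and Il18; 17.0% of all genes).

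**Figure D3:**
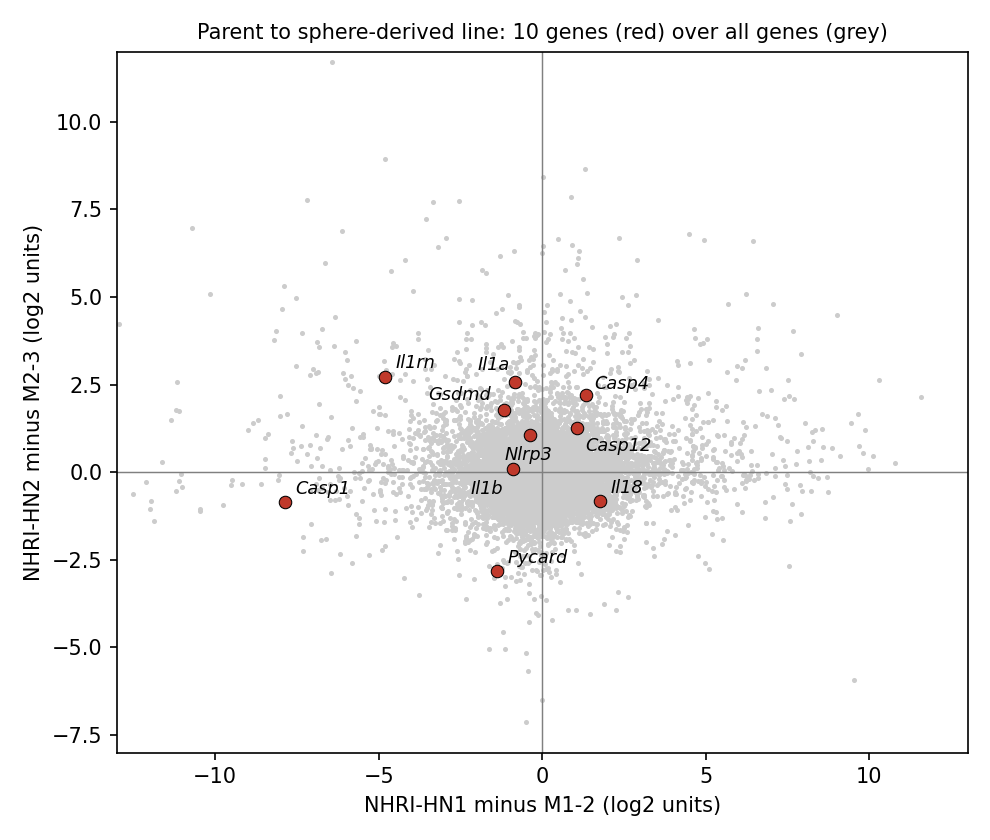
Difference of each sphere-derived line from its parent in log2 units, for NHRI-HN1 (horizontal axis) and NHRI-HN2 (vertical axis); grey points are the 19505 named genes and red points the 10 described here. Casp1 is at -7.86 and -0.86, and Il1rn at -4.80 and 2.72.

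The study compared tumorigenic NHRI-HN1 with the 3 non-tumorigenic lines to ask what accompanies tumor growth in immunocompetent mice, and the mean of those 3 lines was taken here as the reference. The difference was -8.59 units for Casp1, at percentile 0.11 of all genes, -5.85 for Il1rn (percentile 0.46), -3.76 for Pycard (percentile 1.48) and -2.29 for Il1a (percentile 3.72). It was 2.12 for Casp12 (percentile 95.49) and 1.74 for Casp4 (percentile 94.30), and lay between -0.64 and 0.52 for Il1b, Nlrp3, Il18 and Gsdmd. The median was -0.19 over the 10 genes and -0.01 over all genes. The 10 genes were chosen from this contrast, so it is not tested for them. Without M2-3 the difference was -2.46 for Pycard and 1.09 for Casp4, and without NHRI-HN2 it was -1.29 for Il1a. Small differences changed sign, to -0.35 for Gsdmd and -0.17 for Nlrp3 without M2-3 and to -0.26 for Il18 without M1-2. For Casp1 the difference lay between -8.96 and -8.20 whichever other line was left out, and for Il1rn between -6.38 and -4.91.

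The genes whose 4 values ran most like those of a member, by Euclidean distance after centering each gene, were found for the 4 members that spanned at least 4 units. For Casp1 they were Itgb4, an integrin of hemidesmosomes, at 13.74, 5.15, 14.82 and 14.47 in M1-2, NHRI-HN1, M2-3 and NHRI-HN2 (distance 0.65), Stxbp2, a vesicle fusion protein (0.82), and Sostdc1, a secreted BMP and Wnt antagonist (0.88). For Il1rn they were St3gal6, a sialyltransferase (0.79), Nrg1, a ligand of ErbB receptors (0.89), and Klf4, a transcription factor of differentiating epithelium (1.31). Pycard ran with the ephrin gene Efna3 (0.63), Art4 (0.77) and Nrarp, a Notch target (0.87). Il1a ran with Epgn, an EGF receptor ligand (0.46), the chemokine Ccl7 (0.58) and Klhl38 (0.60). With 4 points per gene these distances only describe the arrays.

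Receptors of the family also differed between the lines, although limma called none of the 9 measured (2 higher and 1 lower in NHRI-HN1 at an unadjusted p under 0.05). Il1r1, the signaling receptor for IL-1alpha and IL-1beta, was 5.23 in M1-2 and 14.25 in NHRI-HN1, against 3.25 in M2-3 and 7.74 in NHRI-HN2. NHRI-HN1 was thus the line with the highest receptor value and the lowest value of Il1rn, Il1a and Il1b (limma for Il1r1, log2 difference 8.84, standard error 1.77, adjusted p = 0.19). Il1rap, its coreceptor, was between 6.95 and 8.81 in all lines. Il1r2, a decoy receptor, was 7.29 in M2-3 and between 3.66 and 3.75 in the other lines. The chains of the IL-18 receptor went apart, with Il18r1, which binds the ligand, at 5.44, 2.48, 6.76 and 9.51 and Il18rap, its partner, at 6.07, 8.84, 4.31 and 4.29 in M1-2, NHRI-HN1, M2-3 and NHRI-HN2. NHRI-HN1 was the lowest line for the first and the highest for the second (limma, adjusted p = 0.48 and 0.29). Il1rl2, the receptor of IL-36, was 2.77 in NHRI-HN1 and between 3.97 and 7.55 elsewhere. Of 3 further ligands and binding proteins measured, Il33, an alarmin of barrier cells, was 10.28 in NHRI-HN1 and 3.92 to 5.21 elsewhere (limma, log2 difference 5.89, standard error 0.80, adjusted p = 0.076). Il18bp, which neutralizes IL-18, was between 4.60 and 5.16 in all lines. None of the 3 was called (1 higher and none lower at an unadjusted p under 0.05).

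**Figure D4:**
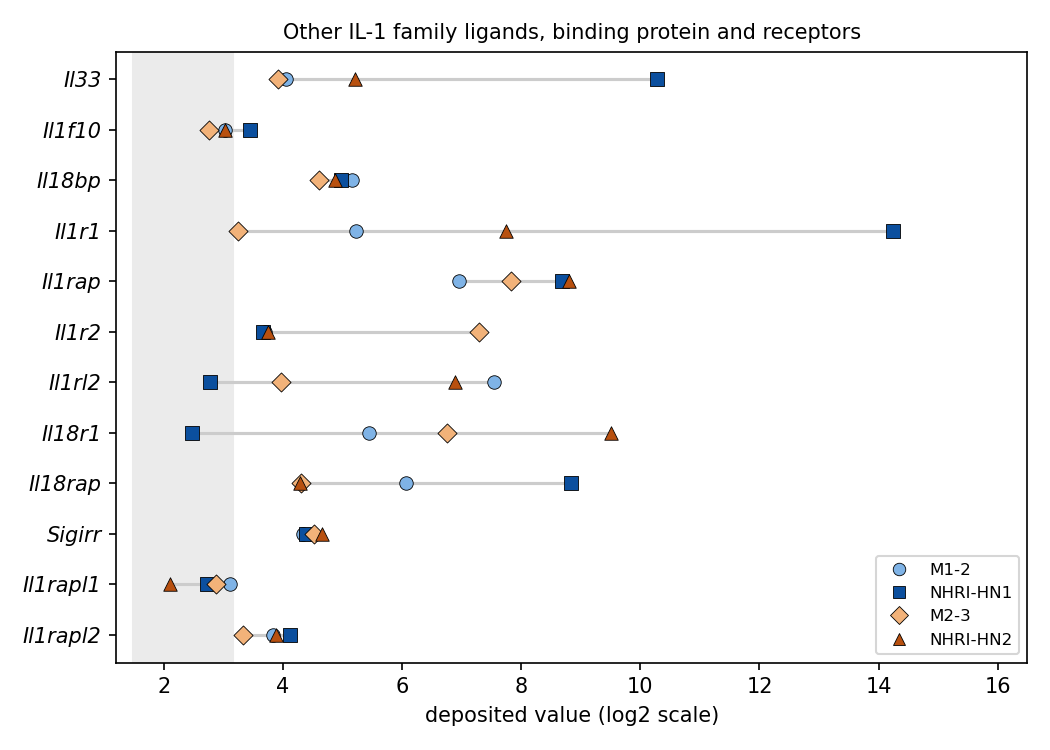
Deposited log2-scale values (horizontal axis) of 3 further IL-1 family ligands and binding proteins and of 9 receptors (rows), 1 symbol per line; the grey band is as in the plot of the 10 genes. NHRI-HN1 (dark squares) is highest for Il33, Il1r1 and Il18rap and lowest for Il18r1 and Il1rl2.

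Of 20 other sensors and regulators of inflammasomes measured, 10 were below the array median in all lines and 6 above it in all lines, and limma called none (2 higher and 1 lower at an unadjusted p under 0.05). Nek7, which NLRP3 needs for assembly, was between 10.98 and 11.69. P2rx7, the ATP-gated channel upstream of NLRP3, was 6.80 in NHRI-HN1 and 8.23 to 8.83 elsewhere (limma, adjusted p = 0.56). Txnip, which binds NLRP3 under oxidative stress, was 11.30 in NHRI-HN1 and 13.09 to 15.23 elsewhere, whereas Card6, of less settled role, was 6.93 against 3.86 to 4.88 (limma, adjusted p = 0.44 and 0.30). Aim2, the DNA sensor that also recruits ASC, was between 2.76 and 3.85. Of 9 other gasdermins and rupture proteins none was called (1 higher and 1 lower at an unadjusted p under 0.05). Gsdme, a gasdermin cut by caspase-3, was 7.51 in NHRI-HN1 and 3.28 to 5.07 elsewhere, and Ninj1, which ruptures the membrane after pore formation, was 11.33 against 12.98 to 13.25 (limma, adjusted p = 0.30 and 0.41). Casp8, which can also process IL-1beta, was between 13.35 and 14.38. None of the 5 other caspases measured was called (1 lower and none higher at an unadjusted p under 0.05). Downstream of the receptors, none of 12 signal adaptors was called (none at an unadjusted p under 0.05 either), with a median difference of -0.79. Myd88, the adaptor shared by IL-1 and Toll-like receptors, was between 7.78 and 8.89, and Irak3, which restrains it, was 7.06 in NHRI-HN1 and 7.94 to 8.39 elsewhere (limma, adjusted p = 0.80 and 0.67).

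Casp1 and Casp4 are both known as interferon-inducible. Interferon-stimulated genes were high in the line where Casp4 was highest and Casp1 lowest. All were chosen with earlier results known, so their sharing this line carries no weight. Of 22 such genes 5 rose in NHRI-HN1 (Ifit1, Ifit3, Isg15, Usp18 and Irf7) and none fell (limma; 20 higher and none lower at an unadjusted p under 0.05), with a median difference of 4.43 units beside -0.01 over all genes. Ifit3 rose by 10.11 (standard error 0.79, limma, adjusted p = 0.034) and Irf7 by 9.54 (standard error 0.80, limma, adjusted p = 0.035). Guanylate-binding proteins help expose bacterial lipopolysaccharide to caspase-11. With the immunity-related GTPases, their median difference was 4.90 over 9 genes, 8 of them at least 1 unit above all other lines (5.89% of all genes). None of these passed the test (7 higher and none lower at an unadjusted p under 0.05). Iigp1 was 9.02 in NHRI-HN1 and 3.79 to 4.19 elsewhere (limma, adjusted p = 0.051), and Tgtp2 was 12.47 against 4.10 to 6.91 (limma, adjusted p = 0.15). Irgm2 was 10.76 in NHRI-HN1 and 4.18 to 6.06 elsewhere, and Gbp3 was 10.92 against 4.16 to 6.43 (limma, adjusted p = 0.12 and 0.19). The line with the lowest Casp1 value therefore had the highest values of Casp4 and of the 9 GTPases measured, which do not all act with caspase-11. The part of interferon in the caspase levels was not tested, and no gene of these lists was called when M2-3 or NHRI-HN2 was left out.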

How the data were processed

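Total RNA of 4 lines, 1 array each, was hybridized to the Affymetrix Mouse Clariom S array. The authors deposited 1 value per probe set on a scale taken here as log2, made with Partek 7 per the submitters' processing notes. Log base, background correction, normalization and probe genome build remain not given in the sources used here. Values run from 1.48 to 19.77, with no detection calls. Of 22206 probe sets 19572 carried 1 gene symbol, and 55 genes with several probe sets were averaged, giving 19505 genes. Limma 3.58.1 (R 4.3.3) estimated how far NHRI-HN1 lay from the other lines' mean, fitting lmFit and then eBayes with an intensity trend, Benjamini-Hochberg adjustment over all genes, a threshold of 0.05 and 2 residual degrees of freedom. With 1 array per line, p-values measure distance from the spread of 3 lines and not of repeat cultures. Other differences were described by size, at 1 log2 unit. On simulated arrays of 19505 genes, drawn independently for each line with 200 shifted for this comparison, 69 shifted and 2 unshifted genes were called. The real lines are not independent, so these counts do not give the error rate of the calls made here. The 10 genes, the gene lists and the motifs were chosen with earlier results of these data known. Genes outside the 10 were named from those lists where limma called them, where they were among the 4 largest differences of a list outside the range of the other lines, or where they act directly with a member. Ptprc, Cd14, Myd88 and the neighbors of the caspase genes were added after their values were seen. Promoter windows and gene order came from RefSeq on GRCm38.p6. The alternatives were quantile normalization, a floor at the lower quartile of 3.09, the brightest probe set, a size of 2 units, leaving out each other line, no intensity trend, a block for the tumor of origin, and leaving out genes under the median level.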

Additional observations from a re-analysis of the deposited data

Results flagged for a closer look

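Gsdmd and Il1rn differed from their parents in opposite directions in the sphere-derived lines. Il1rn was -4.80 log2 units from parent to line in NHRI-HN1 and 2.72 in NHRI-HN2, and Gsdmd was -1.18 and 1.77. With 1 array per line, the difference between these steps was not tested.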

How the results depend on the processing

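Leaving out a line moved the difference from the mean of the other lines from -3.76 to -2.46 for Pycard and from 1.74 to 1.09 for Casp4 (both without M2-3), and from -2.29 to -1.29 for Il1a (without NHRI-HN2). It turned Gsdmd from 0.52 to -0.35 and Nlrp3 from 0.25 to -0.17 (both without M2-3) and Il18 from 0.42 to -0.26 (without M1-2). With the floor at 3.09, Pycard was -2.93, Il1a -1.70 and Nlrp3 -0.09. The floor also took Pycard out of the genes at least 1 unit below M1-2 in NHRI-HN1, which left 3 of the 4. It likewise left 2 of the 3 genes that were at least 1 unit below all other lines there. Casp1, Casp4, Casp12, Pycard, Il1a, Il1b and Il1rn kept their direction under quantile normalization, the floor and leaving out each other line. The brightest probe set could not change the 10 genes, because each has 1 probe set. The counts of genes called by limma, 99 higher and 22 lower, were 116 and 24 after quantile normalization. They were 771 and 37 with the floor and ranged from 0 to 370 and from 0 to 337 when M1-2, M2-3 or NHRI-HN2 was left out. Limma called 0 in either direction without M2-3 (788 higher and 426 lower at an unadjusted p under 0.05), without NHRI-HN2 (697 and 296), without an intensity trend (1074 and 873), with a block for the tumor of origin (1396 and 1312) and without genes under the median level (441 and 533). In these 5 settings none of the 17 called genes of the other lists was called, although Isg15 and Myh3 were not tested in the last, where they fall under the median level. With the floor, 6 of the 17 lost their call (Ifit1, Isg15, Krt14, Perp, Myf5 and Chrna1). Of the 10 genes, those at least 1 unit above all other lines in NHRI-HN1 numbered 2 in place of 1 after quantile normalization or without NHRI-HN2 (1 to 2 over the lines left out), and 0 at a size of 2 units. At 2 units, 0 of the 10 were higher and 2 lower in NHRI-HN1 than in M1-2, and 3 were higher in NHRI-HN2 than in M2-3. The tumor of origin served as the pairing in that block, since the labels give the lines no shared replicate numbers.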

Other observations

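Of 18 genes that IL-1 induces in many cells, 14 had their highest value in NHRI-HN2, the line with the highest Il1a and Il1rn values, which was not tested. The share of all genes highest in that line was not counted, so nothing is read from the 14. They include Csf2, which was between 2.54 and 2.96 in all lines. Ptgs2, Cxcl2 and Mmp3 were highest in M1-2 and Csf3 in NHRI-HN1, exceptions named after their values were seen. The 18 genes had a median difference of 1.92 log2 units between NHRI-HN2 and M2-3 and -0.61 between NHRI-HN1 and M1-2, beside -0.06 and 0.00 over all genes. The chemokine Cxcl5 was 8.52 in M1-2 and 2.08 in NHRI-HN1, against 2.44 in M2-3 and 14.13 in NHRI-HN2, and Cxcl1 was 4.98, 3.68, 4.41 and 10.57 in the same order. Tnfaip3, a brake on NF-kB, was 4.34 in NHRI-HN1 and 6.71 to 14.18 elsewhere. Limma called none of the 18 in NHRI-HN1 (2 lower and none higher at an unadjusted p under 0.05). NHRI-HN1, with the highest Il1r1 value, was at least 1 unit below all other lines for 4 of the 18 and above for none. The shares of all genes were 4.99% and 5.89%.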
